A study of Homo sapiens with 24 samples.

Results

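The 8 genes described here, HMGCS1, SQLE, IDI1, FDFT1, INSIG1, SREBF2, FDPS and DHCR7, were chosen as a named set of genes for the synthesis of cholesterol and its control. Earlier results of these data were known when they were chosen, so counts of members beside shares of all genes are a description. Each symbol matched 1 Ensembl identifier, so that 8 of the 12285 genes of the transcript table were members. Transcript levels were followed in K562 cells, an established human line from a chronic myeloid leukaemia. The cells were sorted by size with centrifugal elutriation to obtain a synchronous population, grown in RPMI medium with 10% bovine calf serum and P/S, and sampled every 2 h from 0 h to 46 h. No treatment, allele or untreated group was compared, and all 24 time points shared these conditions. Each time point was 1 library, so no value has a replicate, and the spread below is that between time points. The labels do not say whether all time points came from 1 culture.

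Cholesterol is made from acetyl-CoA through the mevalonate pathway. HMGCS1 joins acetyl groups into HMG-CoA, IDI1 interconverts the isoprenoid building blocks, FDPS assembles them into farnesyl diphosphate, FDFT1 makes squalene from farnesyl diphosphate, SQLE oxidises squalene, and DHCR7 carries out a last reduction to cholesterol. SREBF2 encodes SREBP2, a membrane-bound transcription factor that is released from the endoplasmic reticulum when sterols are low and then activates the genes of this pathway and of lipoprotein uptake. INSIG1 holds SREBP in the endoplasmic reticulum when sterols are plentiful, and it is itself a target of SREBP. Of the 8 genes, none encodes a receptor or carrier for uptake. Uptake genes were therefore followed as a list beside them. Cholesterol content, SREBP2 protein and its cleavage were not measured, and in bulk RNA a change in the share of cells and a change in transcript per cell cannot be told apart.

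The identity of the cells and the libraries was examined first. All 14 erythroid markers listed for K562 were in the table, with median levels from 13.2 FPKM (EPOR) to 2434 FPKM (HBG2). FPKM counts sequenced fragments scaled by transcript length and by the mapped total of the library. Of 8 fibroblast markers 1 was listed (COL1A2, 1.70 to 3.94 FPKM), and of 8 lymphoid markers 2 were listed, with a summed level of 4.81 to 14.1 FPKM. The study names 16 h and 18 h as STRIPEs, time points with anomalous transcript levels across the whole transcriptome. It calls 32 h a milder case, found by visual inspection and not by its detection function. Over all genes the FPKM values summed to 566247 at 16 h and 591309 at 18 h, while elsewhere they summed to between 456791 and 520382. The results below therefore leave out 16 h and 18 h unless stated, and these time points are described on their own.

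The order of levels was stable at its ends. Over the 22 time points without 16 h and 18 h, FDPS had the highest median level (198 FPKM, range 164 to 233) and SREBF2 the lowest (31.3 FPKM, range 29.2 to 37.5). FDFT1 had a median of 151 FPKM (96.7 to 195), HMGCS1 107 FPKM (60.2 to 141), SQLE 92.3 FPKM (59.8 to 132), INSIG1 81.5 FPKM (52.6 to 150), DHCR7 75.3 FPKM (51.6 to 98.2) and IDI1 75.2 FPKM (42.8 to 86.0). FDPS exceeded FDFT1, FDFT1 exceeded HMGCS1 and IDI1 exceeded SREBF2 at 22 of 22 time points. The 5 genes in the middle overlapped. HMGCS1 was above SQLE at 15 of 22 time points, SQLE above INSIG1 at 14, INSIG1 above DHCR7 at 17 and DHCR7 above IDI1 at 13. INSIG1 also varied most, with a highest level 2.85-fold its lowest, and SREBF2 least, with 1.28-fold.

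**Figure D1:**
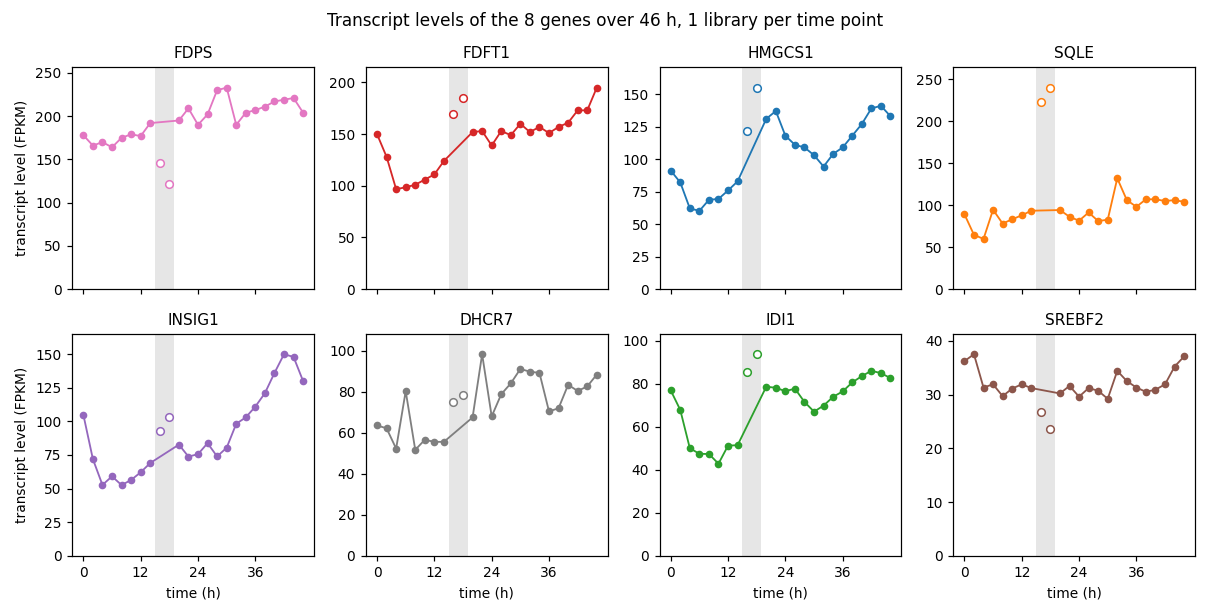
Transcript level in FPKM (y axis, from 0, a separate scale in each panel) against time in h (x axis) for the 8 genes, ordered by median level; points are single libraries, and open points in the grey band are 16 h and 18 h, which the line leaves out. HMGCS1, IDI1, FDFT1 and INSIG1 were lower at 4 to 8 h than at 0 h and higher again from 20 h on, SREBF2 stayed between 29.2 and 37.5 FPKM outside the band, and SQLE reached 240 FPKM within it.

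Transcript levels of INSIG1, IDI1, FDFT1 and HMGCS1 were lower at 4 to 8 h than at the start. INSIG1 was 105 FPKM at 0 h, 71.9 FPKM at 2 h and 52.7, 59.1 and 52.6 FPKM at 4, 6 and 8 h, which is 0.524-fold the level at 0 h. IDI1 had 76.9 FPKM at 0 h and 47.3 to 50.0 FPKM at 4 to 8 h (0.632-fold), and FDFT1 had 150 FPKM and 96.7 to 101 FPKM (0.658-fold). These 3 of 8 genes were at least 1.5-fold lower at 4 to 8 h than at 0 h, against 5.13% of the 12253 genes that averaged 1 FPKM or more. HMGCS1 missed that limit, with 91.2 FPKM at 0 h and 60.2 to 68.7 FPKM at 4 to 8 h (0.700-fold). SQLE (0.854-fold), SREBF2 (0.858-fold), FDPS (0.952-fold) and DHCR7 (0.947-fold) differed less. At 6 h SQLE (94.6 FPKM) and DHCR7 (80.2 FPKM) were above their level at 0 h (89.3 and 63.5 FPKM). Because 0 h is a single library, this comparison has no test. At 2 h, 7 of the 8 genes were below their level at 0 h, and at 4 h 7 were below their level at 2 h. These steps compare single libraries, and the share of all genes that fell at each step was not counted.

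HMGCS1, IDI1, FDFT1 and INSIG1 were higher again by 20 h, and among these 4 genes IDI1 had the latest minimum. INSIG1 had 56.4, 62.1 and 69.0 FPKM at 10, 12 and 14 h, and HMGCS1 had 69.4, 75.9 and 82.9 FPKM. IDI1 had its lowest value, 42.8 FPKM, at 10 h and 51.4 FPKM at 14 h, and then 78.6 FPKM at 20 h. At 20, 22 and 24 h, HMGCS1 had 131, 137 and 118 FPKM, 2.00-fold the level of 4 to 8 h, and IDI1 had 78.6, 78.1 and 76.5 FPKM, 1.60-fold. These 2 of 8 genes were at least 1.5-fold higher, against 2.6% of all genes. In 5 of 8 genes every value at 20 to 24 h lay above every value at 4 to 8 h (17.3% of all genes). The exceptions were SQLE, SREBF2 and DHCR7.

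The end of the series held the highest levels of several genes. At 42, 44 and 46 h, INSIG1 had 150, 148 and 130 FPKM, 2.58-fold its level at 4 to 8 h, and HMGCS1 had 139, 141 and 133 FPKM, 2.15-fold. FDFT1 had 173, 173 and 195 FPKM (1.82-fold), and IDI1 had 86.0, 84.9 and 82.6 FPKM (1.74-fold). Thus 4 of 8 genes were at least 1.5-fold higher at 42 to 46 h than at 4 to 8 h, against 6.74% of all genes. DHCR7 (1.39-fold), SQLE (1.38-fold), FDPS (1.26-fold) and SREBF2 (1.12-fold) had smaller differences. In 8 of 8 genes the 3 late values lay above the 3 early ones, against 23.2% of all genes. For SREBF2 these ranges touched at 31.9 FPKM after rounding, and DHCR7 had 80.2 FPKM at 6 h and 80.3 FPKM at 42 h. INSIG1 stood apart between 20 to 24 h and 42 to 46 h. It was 1.83-fold higher in the later window, the only one of the 8 past 1.5-fold (2.61% of all genes), while HMGCS1 was 1.07-fold and IDI1 1.09-fold its earlier level.

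The 2 days of the series were then compared at matched hours, under the assumption of a 24 h cycle of 12 time points. The question was whether these genes returned to the same level a cycle later. Over the 10 pairs of hours that leave out 16 h, 18 h and their partners, 6 of 8 genes were higher on the second day and 0 of 8 lower by limma at an adjusted p of 0.05 (0 of 8 also at an unadjusted p under 0.05), while 12.6% of all genes were called higher and 6.8% lower. The median difference of the 8 genes was 0.37 on the log2(FPKM + 1) scale, and that of all genes 0.01. All differences in the next paragraphs are on this scale, with the standard error over 10 pairs.

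INSIG1 had the largest difference, 0.57 ± 0.12, higher in 9 of 10 pairs (limma adjusted p = 0.00725). It was followed by HMGCS1 with 0.45 ± 0.08 (9 of 10 pairs, adjusted p = 0.00262 by limma). FDFT1 differed by 0.39 ± 0.07 (limma adjusted p = 0.00390) and IDI1 by 0.39 ± 0.08 (adjusted p = 0.00649 by limma), each in 9 of 10 pairs. DHCR7 differed by 0.36 ± 0.08 and FDPS by 0.21 ± 0.06 (limma adjusted p = 0.0124 and 0.0198), again in 9 of 10 pairs each. SQLE, with 0.25 ± 0.08 and 8 of 10 pairs higher, missed the threshold (limma adjusted p = 0.0537), and its 95% interval ran from 0.07 to 0.43. The transcript of SREBF2 itself had a difference of 0.00 ± 0.06, with 4 of 10 pairs higher (limma adjusted p = 0.974) and a 95% interval from -0.14 to 0.13. Calls of SQLE depended on the settings. It was called in 6 of 20 alternatives, and with all 12 pairs of hours, which bring in its values of 223 and 240 FPKM at 16 h and 18 h, the adjusted p was 0.945.

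The difference between the days was not the same at every hour. For the pair of 0 h and 24 h the median over the 8 genes was -0.06, with 3 genes higher. It was 0.27 for 2 h and 26 h and 0.49 for 4 h and 28 h. For 8 h and 32 h and for 10 h and 34 h it was 0.57. In these 2 pairs and in that of 20 h and 44 h, 8 of 8 genes were higher. The share of all genes that were higher in a single pair was not counted. The median of the 8 genes was 0.35 for 14 h and 38 h, 0.18 for 20 h and 44 h and 0.15 for 22 h and 46 h. HMGCS1 thus had 60.2 FPKM at 6 h and 103 FPKM at 30 h, but 137 FPKM at 22 h and 133 FPKM at 46 h. INSIG1 had the most negative difference of the 8 genes for 0 h and 24 h (105 FPKM and 75.6 FPKM, -0.47) and the largest for 20 h and 44 h (0.84) and for 22 h and 46 h (0.81). SREBF2 differed by -0.28 for 0 h and 24 h, by -0.26 for 2 h and 26 h, and by 0.22 for both of the last pairs.

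**Figure D2:**
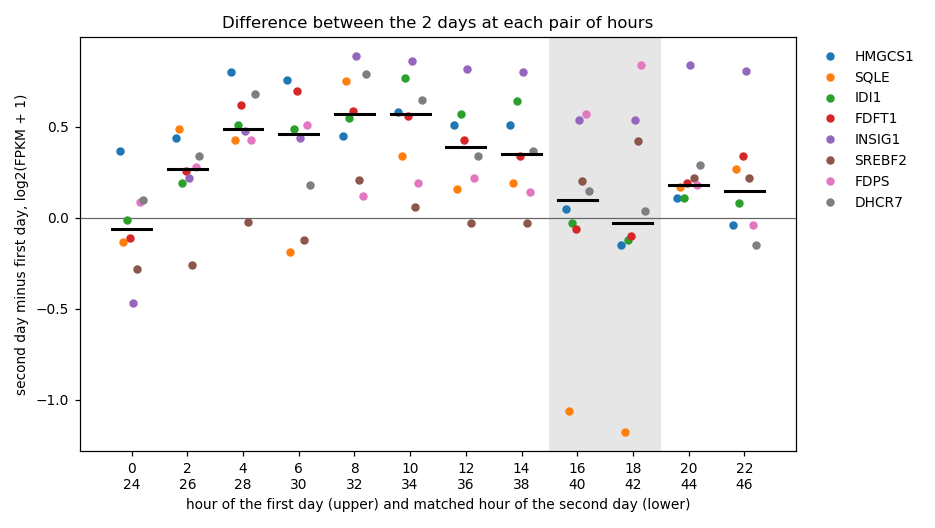
Level on the second day minus that on the first on the log2(FPKM + 1) scale (y axis) for each of 12 pairs of hours (x axis), with a coloured point for each of the 8 genes and a black bar at their median; the grey band holds the pairs with 16 h and 18 h, which the test left out. The bar lies at -0.06 for 0 h and 24 h, between 0.27 and 0.57 from 2 h to 14 h, and at 0.18 and 0.15 for the last pairs.

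A 24 h order in the time points was tested with the JTK statistic, which scores how well the ranks of a gene follow a cosine. Using all 24 time points, 5 of 8 genes passed an adjusted p of 0.05, against 13% of all genes. In this permutation test the adjusted p was 0.00296 for HMGCS1, 0.00256 for IDI1, 0.0146 for SQLE, 0.0380 for FDFT1 and 0.0459 for INSIG1, with best phases from 16 h to 20 h. These phases include 16 h and 18 h. The study reports that genes whose peak or trough fell at those hours were over-represented among its most periodic genes before correction. Its successful corrections, interpolation among them, lowered this share but not to the level it expected. FDPS, DHCR7 and SREBF2 did not pass, with adjusted p-values in this permutation test of 0.796, 0.771 and 0.655. HMGCS1 and IDI1 were called in 9 of 10 alternatives, SQLE in 6, INSIG1 in 3 and FDFT1 in 1. With a cycle of 20 h HMGCS1 and IDI1 were lost too (adjusted p of 0.220 and 0.0714 in the permutation test). Without 16 h and 18 h FDFT1 was lost (adjusted permutation p = 0.106). With both hours interpolated only HMGCS1 and IDI1 passed, 2 of 8 genes. Over all genes, 2264 of 12285 passed with this interpolation, against 1602 as deposited. In a cosine fit with a day term by limma, without 16 h and 18 h, 4 of 8 genes passed, against 24% of all genes. INSIG1 had the largest amplitude, 0.38 ± 0.07 with a peak at 18.2 h, followed by HMGCS1 with 0.37 ± 0.05 and a peak at 19.5 h, IDI1 with 0.27 ± 0.04 at 20.5 h and FDFT1 with 0.20 ± 0.04 at 19.9 h.

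For orientation in the cell cycle, the mitotic cyclin CCNB1 had 168 FPKM at 0 h, 65.0 FPKM at 4 h, 235 FPKM at 20 h and 237 FPKM at 22 h. CCNE2, a cyclin of entry into S phase, had 38.9 FPKM at 2 h and 13.5 FPKM at 14 h. The mean Z-score of the 8 genes had a Pearson r of 0.66 with CCNB1 and of -0.13 with CCNE2 over 22 time points that share libraries and neighbouring hours. These values are a description. CCNB1 had a mean of 218 FPKM at 20 to 24 h and 154 FPKM at 42 to 46 h, whereas INSIG1 had 77.4 and 143 FPKM.

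The likeness of the 8 genes to each other is given as a description, with SQLE and SREBF2 set apart from the other 6 after the values were seen. The 15 pairs among HMGCS1, IDI1, FDFT1, INSIG1, FDPS and DHCR7 had Pearson r from 0.57 to 0.92 (median 0.78) and Spearman rho from 0.48 to 0.94 over the 22 time points. SQLE had r from 0.44 to 0.70 with these 6 genes, which overlaps the range among the 6. SREBF2 had r from -0.23 to 0.35 with the other 7 genes. For the differences between neighbouring time points the median r was 0.35 among the 15 pairs, with a range from -0.10 to 0.74. On this measure SREBF2 was not set apart, with a median r of 0.40 and a range from -0.43 to 0.47 over its 7 pairs, and SQLE had a median r of 0.22 with the 6 genes. These time points share slow changes over the series, so the r values are given without a test.

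The genes most like the mean Z-score of the 8 were sought among 7161 other genes that averaged 10 FPKM or more. The first 10 were FGF13, SH2D2A, VCL, ELOVL5, SERPINB9, MSMO1, DNAJC12, PRPS2, LIMA1 and PSME4, with r from 0.95 to 0.97 over 22 time points. This list depended on the setting. With all 24 time points 5 of these 10 were again among the first 10, with upper-quartile scaling 7, and with differences between consecutive time points 1. MSMO1, which removes methyl groups from sterol precursors in the same pathway, had 24.0 FPKM at 4 to 8 h, 48.4 FPKM at 20 to 24 h and 66.5 FPKM at 42 to 46 h. ELOVL5, which lengthens unsaturated fatty acids, had 96.4, 122 and 139 FPKM in these windows. SERPINB9, an inhibitor of granzyme B, had 6.42, 12.2 and 18.2 FPKM, and VCL, which encodes the adhesion protein vinculin, had 50.3, 65.1 and 74.9 FPKM. Of the sterol and lipid genes in the lists below, 8 were among the first 100 and 44 among all 7161. The least alike were SRXN1, DHRS13 and COMMD9, with r from -0.95 to -0.94; COMMD9 had 36.0 FPKM at 4 to 8 h and 21.3 FPKM at 42 to 46 h.

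The whole pathway, the 8 genes included, was described by lists of genes, with the same test between the days. Of 8 genes from acetyl-CoA to farnesyl diphosphate, 6 rose, 1 fell and 1 was not called, with a median difference of 0.23. Without the 8 genes, 3 of 5 rose and 1 fell. Besides HMGCS1, IDI1 and FDPS, those that rose were ACAT2, which condenses acetyl-CoA (0.27 ± 0.06, limma adjusted p = 0.00974), the kinase MVK (0.20 ± 0.05) and the decarboxylase MVD (0.24 ± 0.07). PMVK, the kinase that acts between MVK and MVD, fell by 0.41 on the log2 scale with a standard error of 0.10 and was higher in 1 of 10 pairs (limma adjusted p = 0.0154). Of 13 genes from squalene to cholesterol, 5 rose, 0 fell and 8 were not called (median 0.20). Without FDFT1, SQLE and DHCR7, 3 of 10 rose. MSMO1 had the largest difference, 0.64 ± 0.11 (limma adjusted p = 0.00296), and TM7SF2 (0.20 ± 0.06) and LSS (0.20 ± 0.05), the cyclase that forms lanosterol, also rose. SC5D (0.03 ± 0.07) and LBR (0.05 ± 0.06) had the smallest differences.

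Of 9 genes that control SREBP, 2 rose, 1 fell and 6 were not called (median 0.04). Without INSIG1 and SREBF2, 1 of 7 rose and 1 fell. SREBF1, which encodes SREBP1, a relative of SREBP2 with a larger part in fatty acid synthesis, rose with INSIG1 (0.46 ± 0.08, limma adjusted p = 0.00275), in contrast to SREBF2. The difference between the 2 SREBF genes was not tested. SCAP, the escort that carries SREBP to the Golgi, differed by -0.17 ± 0.06 (limma adjusted p = 0.0634).

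Of 9 measured genes of uptake and trafficking, 4 rose, 0 fell and 5 were not called (median 0.17). SCARB1, a receptor for high-density lipoprotein, rose by 0.53 ± 0.08 in 10 of 10 pairs (limma adjusted p = 9.64e-04). STARD4, a carrier of cholesterol in the cytosol, differed by 0.40 ± 0.11, and MYLIP, a ligase that marks lipoprotein receptors for degradation, by 0.17 ± 0.05, and both passed the test. TMEM97 (0.07 ± 0.11) and NPC2 (0.08 ± 0.07) had the smallest differences. Of 3 measured genes of efflux and storage, 1 rose, SOAT1, which esterifies cholesterol (0.31 ± 0.10, limma adjusted p = 0.0447). Of 8 genes of other isoprenoid branches, which start from the product of FDPS or its precursors, 0 rose, 1 fell (PDSS1, by 0.22 on the log2 scale) and 7 were not called, with a median of 0.00.

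Fatty acid synthesis, which SREBP1 is known to control, had 7 of 10 genes that rose, 0 that fell and a median of 0.25. FADS1, a desaturase, rose 2.00-fold, with a standard error of 0.13 on the log2 scale, in 10 of 10 pairs (limma adjusted p = 4.19e-04), and ELOVL6, an elongase, by 0.52 ± 0.08, also in 10 of 10 pairs. ACSS2 (0.40 ± 0.07), ACLY (0.32 ± 0.06), SCD (0.26 ± 0.07), HSD17B12 (0.24 ± 0.05) and ELOVL5 (0.22 ± 0.05) rose as well. FASN (0.11 ± 0.06) and FADS2 (0.14 ± 0.08) were not called. All of these counts stand beside the 12.6% of all genes that were higher and the 6.8% that were lower, and the lists were not tested against other lists. In each of these 7 lists with 0 genes called in a direction, 0 genes also had an unadjusted p under 0.05 in that direction by limma. Of the 14 erythroid markers, 1 rose (NFE2), 1 fell (HBZ) and 12 were not called, with a median of -0.13. At an unadjusted p under 0.05 by limma, 1 was higher and 5 were lower. Some cell-cycle genes also differed between the days. Of 6 references of G2/M, 1 rose (TOP2A, 0.51 ± 0.09) and 0 fell, with a median of 0.40. Of 6 references of S phase, 0 rose (1 at an unadjusted p under 0.05 by limma) and 2 fell (MCM5, -0.15 ± 0.04, and PCNA, -0.20 ± 0.06), with a median of 0.00. TOP2A, MCM5 and PCNA were named after their values were seen, and the part of cell-cycle stage in the day difference was not tested. COL1A2 (0.42) and CD3D (0.59), the listed fibroblast and lymphoid markers with enough signal to test, were also higher on the second day. CD3D ranged from 4.20 to 12.9 FPKM, while COL1A1, CD3E and most other defining markers of these cell types are not among the genes listed. The part of such cells in the day difference was not tested.

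**Figure D3:**
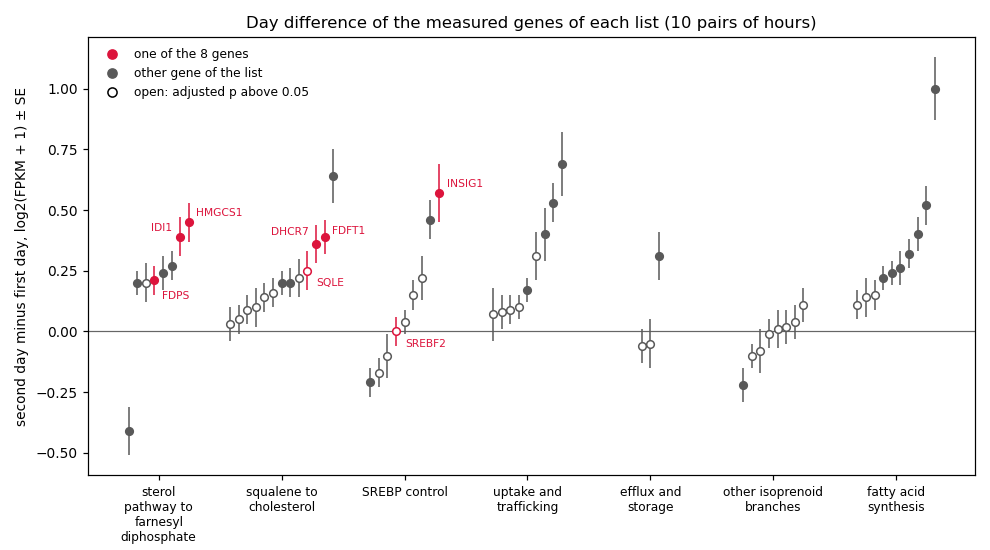
Difference between the second and the first day on the log2(FPKM + 1) scale with its standard error (y axis) for each measured gene of 7 lists (x axis), ordered within a list; red points with names are among the 8 genes, grey points are other genes, and open points have a limma adjusted p above 0.05. Filled points above 0 number 6, 5, 2, 4, 1, 0 and 7 in the lists from left to right.

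At 16 h and 18 h, the time points that the study names as anomalous, SQLE stood furthest from its neighbours. It had 93.4 FPKM at 14 h, 223 FPKM at 16 h, 240 FPKM at 18 h and 94.2 FPKM at 20 h, on average 1.29 on the log2 scale above the line from 14 h to 20 h. The same measure at 16 other pairs of time points ran from -0.56 to 0.39 for SQLE. IDI1 lay 0.49, HMGCS1 0.40, INSIG1 0.37, FDFT1 0.36 and DHCR7 0.32 above their lines. FDPS lay below, with 192 FPKM at 14 h, 146 FPKM at 16 h, 122 FPKM at 18 h and 195 FPKM at 20 h (-0.53), and so did SREBF2 with 31.2, 26.7, 23.6 and 30.2 FPKM (-0.28). All 8 genes were thus outside their own range at the other pairs, 6 above and 2 below, but so were many genes, 43.6% above and 28% below. At least 2-fold above the line was 1 of 8 genes (8.95% of all genes) and at least 2-fold below was 0 of 8 (7.11%). Dividing each time point by its upper quartile moved these values downwards, to 1.05 for SQLE, 0.15 for HMGCS1 and -0.77 for FDPS, with every sign kept. The median of all genes was 0.14 as deposited and -0.07 with that scaling.

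The direction at 16 h and 18 h went with the GC content of the transcript in most of the 8 genes. HMGCS1 (40.2% GC in its longest GENCODE transcript), IDI1 (41.1%), INSIG1 (46.0%), SQLE (46.5%) and FDFT1 (48.6%) lay above the line, and FDPS (56.0%) and SREBF2 (57.1%) lay below it. DHCR7, with 58.3% the highest of the 8, lay above. Across 60 genes of the sterol and lipid lists the Pearson r of the distance with GC content was -0.66 (Spearman rho -0.65), and across 12148 genes it was -0.51 (rho -0.56). These are correlations across genes of the same 4 libraries, and genes are not independent replicates. Of the 30 list genes with the lower GC content, 28 lay above the line, and of the 30 with the higher, 13 did. The part of GC content in these values was not tested.

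**Figure D4:**
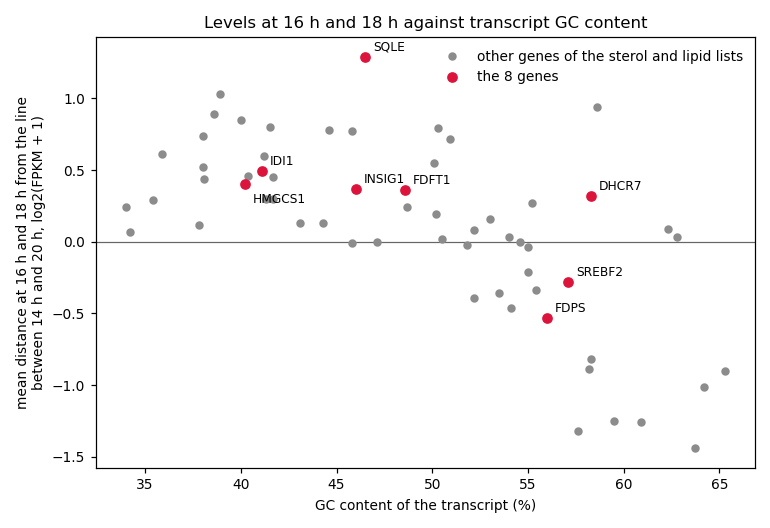
Mean distance at 16 h and 18 h from the line between 14 h and 20 h on the log2(FPKM + 1) scale (y axis) against the GC content of the longest transcript in percent (x axis) for 60 genes of the sterol and lipid lists; red points are the 8 genes and grey points the others. SQLE lies highest among the 8 at 1.29 and FDPS lowest at -0.53, and across all 60 points the distance falls with GC content, with r of -0.66.

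Single time points also stood out in SQLE and DHCR7. SQLE had 132 FPKM at 32 h between 82.7 FPKM at 30 h and 106 FPKM at 34 h, which is 0.49 above the mean of its neighbours on the log2 scale, and 94.6 FPKM at 6 h between 59.8 and 78.1 FPKM (0.46). These were its largest values of this measure wherever it could be taken without 16 h and 18 h. DHCR7 had 80.2 FPKM at 6 h between 52.2 and 51.6 FPKM (0.62), and 98.2 FPKM at 22 h between 67.4 and 67.9 FPKM (0.53). FDPS had 190 FPKM at 32 h between 233 and 204 FPKM (-0.20), below its range from -0.11 to 0.15 at the other hours. HMGCS1 had 137 FPKM at 22 h between 131 and 118 FPKM (0.14), above its range from -0.18 to 0.12. The share of all genes that stood out at 6 h, 22 h and 32 h was not counted, and the study names 32 h as a milder STRIPE. Without the pairs that hold 6 h and 32 h, the 6 genes called between the days were still called, and SQLE was called as well (0.24, limma adjusted p = 0.0429). In that setting 8.99% of all genes were called higher and 4.90% lower.

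The sequence before the start of transcription was searched for 4 motifs known from sterol-regulated and other promoters. RefSeq promoters (GRCh38.p14) were found for 6 of the 8 genes, with 10 start sites in all. Positions are counted in bases before the start site to the first base of the match, and each window holds 250 bases. The sterol regulatory element, to which SREBP binds, was searched as TCACNCCAC on both strands. It was found in 1 of the 10 windows, that of SREBF2, as TCACCCCAC at 133 bases before the start, and in 0.883% of 35116 windows of all genes. The E-box CACGTG, which SREBP can also bind, was found in 1 of the 10 windows, that of INSIG1, at 55 bases before the start (6.34% of all windows). The CCAAT box, the site of NF-Y, which acts with SREBP, was found as CCAAT or its complement in 6 of 6 genes, or 7 of their 10 windows (32.0% of all windows). The GC box GGGCGG, a site of SP1, was found on either strand in 6 of 6 genes, or 9 of their 10 windows (42.6% of all windows). Because several genes have more than 1 start site, a gene had more than 1 chance to match. A match is a description of these letters, and SREBP binds many sites that differ from this consensus. The windows of SREBF2 and INSIG1 are printed for their sterol element and E-box, and those of HMGCS1 and FDPS for their CCAAT boxes without either. Capitals mark every match to the 4 motifs on either strand, and overlapping GC boxes run together.
SREBF2 (chr22:41832855-41833104, plus strand, GRCh38.p14): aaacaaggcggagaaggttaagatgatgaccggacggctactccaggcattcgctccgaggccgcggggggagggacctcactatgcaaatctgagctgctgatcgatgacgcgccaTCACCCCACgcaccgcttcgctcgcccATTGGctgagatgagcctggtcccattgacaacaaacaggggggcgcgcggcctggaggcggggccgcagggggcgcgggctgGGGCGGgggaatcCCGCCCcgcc
INSIG1 (chr7:155297628-155297877, plus strand, GRCh38.p14): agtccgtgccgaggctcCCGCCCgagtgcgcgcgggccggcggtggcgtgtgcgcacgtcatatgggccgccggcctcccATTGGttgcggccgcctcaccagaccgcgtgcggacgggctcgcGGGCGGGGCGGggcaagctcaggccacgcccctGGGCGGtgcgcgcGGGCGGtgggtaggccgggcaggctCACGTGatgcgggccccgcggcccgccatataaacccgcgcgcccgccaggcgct
HMGCS1 (chr5:43313413-43313662, minus strand, GRCh38.p14): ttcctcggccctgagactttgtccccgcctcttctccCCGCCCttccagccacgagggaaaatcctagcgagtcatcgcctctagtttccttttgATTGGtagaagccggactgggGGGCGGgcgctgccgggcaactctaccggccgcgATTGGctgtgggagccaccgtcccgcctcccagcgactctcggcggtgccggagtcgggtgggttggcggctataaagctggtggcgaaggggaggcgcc
FDPS (chr1:155308616-155308865, plus strand, GRCh38.p14): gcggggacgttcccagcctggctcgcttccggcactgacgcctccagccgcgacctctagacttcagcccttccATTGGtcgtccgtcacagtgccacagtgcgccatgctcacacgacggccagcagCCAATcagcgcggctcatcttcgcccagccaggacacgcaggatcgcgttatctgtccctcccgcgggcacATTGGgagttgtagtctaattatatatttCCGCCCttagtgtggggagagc

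In these 4 windows, HMGCS1 held CCAAT boxes at 155 and 100 bases before the start and FDPS at 176, 122 and 51 bases. SREBF2 held its CCAAT box at 106 bases, next to the sterol element, and INSIG1 at 170 bases together with 5 GC boxes.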

How the data were processed

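RNA from 24 time points of synchronized K562 cells, 1 library each, was sequenced by the authors. Per the labels, reads were aligned with STAR to GRCh37 and quantified with Cufflinks (Cufflinks2 in the study's methods) and Cuffnorm. Further versions, annotation and the counting of strand are not given in the sources used here. The authors deposited FPKM per gene (12285 genes), a normalized unit without counts, so the depth is unknown and no counting interval is given. FPKM was analysed as log2(FPKM + 1), on which the change of low genes is understated. A deposited second table holds Z-score values that the authors quantile normalized, a score used here only as an alternative. The members and lists were chosen with earlier results of these data known.

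Tests were limma 3.58.1 (R 4.3.3) on 10 pairs of hours with the hour as a block, on 12253 genes averaging 1 FPKM or more, and the JTK statistic with 100000 permutations of the time points, over 12285 genes, both with Benjamini-Hochberg adjustment over all genes tested. Both treat time points or pairs as independent, although neighbouring time points resemble each other, so that these p-values are too small. Each replicate was a time point, and p-values measure the spread between time points. Both were also run on simulated data with independent noise at each time point. Such data cannot show how the tests behave when neighbouring time points resemble each other. A gene is said to have risen or fallen between the days only at an adjusted p of 0.05 or below. Genes named were the 8 members, list genes that were called or had the 2 largest or smallest differences, the 10 most and the 3 least like genes, CCNE2, CCNB1 and the markers. Some list genes are counted but not reported here by name. Symbols matched 12123 of 12285 identifiers. GC content came from the longest GENCODE 29 transcript (GRCh38; 12180 genes), used for no coordinate, and promoters from RefSeq GRCh38.p14. Alternatives covered scaling, pseudocount, filter, period, a straight line in time removed, the STRIPE time points and each pair left out. Windows without 6 h or rescaled, and the 24 h order without 6 h, 16 h, 18 h and 32 h, were added after seeing the data.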

Additional observations from a re-analysis of the deposited data

How the results depend on the processing

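The members called between the days stayed at 6 or 7 higher and 0 lower in each of the 20 alternatives, and the 6 called genes were called in every one, with adjusted p by limma up to 0.0495 (FDPS). SQLE was called in 6 of 20 alternatives, with adjusted p from 0.0245 to 0.945. Leaving out each pair of hours in turn gave 6 to 7 members higher and 0 lower, 1063 to 1840 genes higher and 452 to 1020 genes lower over the whole table. As deposited, 1547 genes were higher and 833 lower. A mean of at least 10 FPKM, which tests fewer genes, gave 732 higher. Median centring gave 1284 lower and 1260 were lower in the cleaned table. The split of all calls was thus 12.6% higher and 6.8% lower as deposited, but 10.4% and 10.5% with median centring, 10.0% and 9.42% with quantile normalization, 12.0% and 10.3% in the cleaned table and 10.2% and 8.38% where the mean had to reach 10 FPKM. The cause was not tested. The main test pairs hours of the 2 days. The labels give no replicate numbers, so no samples could be paired by replicate. Without the hour as a block 6 members were called higher and 0 lower, against 12.8% and 6.43% of all genes.

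The 24 h order called 5 members and 1602 genes. It called 0 members (3 at an unadjusted permutation p under 0.05) and 385 genes with a cycle of 20 h, and 2 and 410 with 28 h. With 16 h and 18 h interpolated it called 2 members and 2264 genes, and with quantile normalization 3 and 1631. The cleaned table gave 3 members and 1425 genes, and upper-quartile scaling 3 and 1661. Without 6 h, 16 h, 18 h and 32 h, 3 members and 1062 genes were called. The cosine fit called 4 members and 2941 genes. Without 16 h and 18 h, 4 members and 1808 genes were called, and with a straight line in time removed 4 and 1656. In both settings fewer members but more genes over the whole table were called than as deposited. The same held with interpolation, quantile normalization and upper-quartile scaling, and in the cosine fit. At 16 h and 18 h, 1097 genes were at least 2-fold above and 871 below their flanks. A pseudocount of 0.1 gave 1308 below and a mean of at least 10 FPKM 549 below, upper-quartile scaling gave 568 above and 1321 below, and a limit of 1.5-fold 2933 above and 2060 below. Of the 10 genes most like the members, 5 were shared with all 24 time points, 7 with upper-quartile scaling and 1 with differences between consecutive time points. The counts of the windows over the members stayed within 1.5 times under each alternative run. The design holds 1 library per time point and its depth is unknown, which limits every value.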
